A study of Mus musculus with 6 samples.

Results

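The Rhox cluster is a group of related homeobox genes on the mouse X chromosome that are expressed mainly in testis, ovary and placenta. Its members were taken as all gene rows whose name starts with Rhox, and 14 of the 12626 gene rows met this rule, each with a name held by 1 row. They are Rhox1, 7 copies of Rhox2 (Rhox2a, Rhox2b, Rhox2c, Rhox2d, Rhox2e, Rhox2g and Rhox2h), Rhox4g, Rhox5, Rhox6, Rhox7, Rhox9 and Rhox13. RNA-seq was performed on J1 ES cells, a wild-type mouse embryonic stem cell line that carries no engineered allele in these samples, as serum medium was replaced by 2i+vitC. The 2 D0 samples were cells grown in serum, and the 2 D6 and 2 D13 samples were cells after 6 and 13 days in serum-free 2i+vitC, which holds 3 µM of the Gsk3 inhibitor CT-99021, 1 µM of the MEK inhibitor PD0325901 and 100 µg/mL vitamin C. LIF, which sustains ES cell self-renewal, was present at 1000 U/mL in both media, and all cells were on gelatin without feeders. D0 differs from both later days in medium and in time of culture, and these cannot be told apart. The samples were replicates of 1 cell line, so that the p-values cover the spread between its cultures only.

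Homeobox genes encode transcription factors that bind DNA through a homeodomain. In the embryo proper, much of the Rhox cluster is silenced with DNA methylation at its promoters, and loss of the de novo DNA methyltransferases is known to release it. Rhox5, also called Pem, is the founding member and is known from Sertoli cells of the testis, from placenta and from ES cells. Rhox6 and Rhox9, also called Psx1 and Psx2, are known from placenta and germ cells, and the Rhox4 genes were first described in differentiating ES cells. 2i+vitC medium lowers DNA methylation genome-wide. DNA methylation was not measured in the samples used here.

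The files give log2 CPM (counts per 1000000 reads of the normalised library), and whole reads could be read off them. Gene reads per sample ranged from 73230745 to 83688345, and 3 reads, the limit that a count of 0 allows, were 0.034 to 0.042 CPM. All 8 ES cell markers tested had a row, and Pou5f1 lay between 9.46 and 10.18 log2 CPM in the 6 samples. Every gene row in the files reached at least 1.019 reads per 1000000 gene reads in 3 or more of the 6 samples. As there were 2 samples per day, a gene that was silent at D0 has a row only if it reached this level at D6 or D13. This held for 9 of the 14 members (the 7 Rhox2 copies, Rhox4g and Rhox7), which were below it in both D0 samples and so had to be higher later. The annotation holds 33 protein-coding Rhox genes, and the 19 without a row were not analysed here. The counts over members given here therefore describe the 14 and say nothing of the cluster as a whole.

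The 14 members lie between 37213804 and 38129966 on chromosome X (GRCm38), a stretch of 916.2 kb. No other gene in it could be matched by name to a row. Genes spelled with a capital G, or with a name held by several rows, could not be matched. RefSeq (GRCm38.p6) promoter windows, of 250 bases before and 50 bases after a start, matched 11 members, and Rhox6, Rhox7 and Rhox9 had none. CpG sites, where DNA methylation acts, numbered between 0 and 10 per window of 300 bases, with a median of 7. The 32851 windows of all genes also had a median of 7, with quartiles of 3 and 20, so that the members' windows were of usual or low CpG content. Rhox1 had 0 CpG, Rhox5, Rhox13 and Rhox2g had 5 each, and Rhox4g had the most. The 250 bases upstream of 5 members are printed 5′ to 3′ with each CpG in capitals, to show the window without a CpG, 2 of the near-identical Rhox2 windows, the window richest in CpG, and the member with the highest level.
Rhox1, chrX:37222259-37222508, minus strand: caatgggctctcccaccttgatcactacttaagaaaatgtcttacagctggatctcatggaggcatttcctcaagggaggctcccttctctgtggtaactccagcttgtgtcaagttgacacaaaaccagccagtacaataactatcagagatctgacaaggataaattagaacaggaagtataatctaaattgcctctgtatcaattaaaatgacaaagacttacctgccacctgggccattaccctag
Rhox2a, chrX:37244742-37244991, plus strand: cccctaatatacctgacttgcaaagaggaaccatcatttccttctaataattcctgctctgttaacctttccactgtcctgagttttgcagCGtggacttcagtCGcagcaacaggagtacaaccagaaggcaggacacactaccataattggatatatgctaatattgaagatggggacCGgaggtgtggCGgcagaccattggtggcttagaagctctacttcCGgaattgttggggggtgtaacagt
Rhox2g, chrX:37643471-37643720, minus strand: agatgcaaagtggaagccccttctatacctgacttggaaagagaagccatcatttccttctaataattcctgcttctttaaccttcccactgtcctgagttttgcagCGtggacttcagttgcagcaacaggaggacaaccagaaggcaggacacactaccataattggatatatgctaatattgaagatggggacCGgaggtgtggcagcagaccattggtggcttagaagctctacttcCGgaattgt
Rhox4g, chrX:37651328-37651577, minus strand: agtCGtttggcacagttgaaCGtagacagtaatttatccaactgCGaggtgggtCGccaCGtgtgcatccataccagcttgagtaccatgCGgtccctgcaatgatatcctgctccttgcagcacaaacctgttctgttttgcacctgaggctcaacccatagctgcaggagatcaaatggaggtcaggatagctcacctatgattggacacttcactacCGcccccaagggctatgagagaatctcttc
Rhox5, chrX:37754358-37754607, plus strand: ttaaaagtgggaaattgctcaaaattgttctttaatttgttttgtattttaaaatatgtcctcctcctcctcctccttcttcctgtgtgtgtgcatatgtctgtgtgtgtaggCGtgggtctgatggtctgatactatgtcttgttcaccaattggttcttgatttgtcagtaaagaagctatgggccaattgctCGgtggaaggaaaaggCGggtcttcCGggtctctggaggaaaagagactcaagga

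The upstream bases of the 7 Rhox2 copies were 93.7% to 100% identical to each other where they aligned. All 7 held the letters ACTTCCGG, the complement of the ETS motif CCGGAAGT, which begin 14 to 52 bases before the start. No other member's window held this motif on either strand, and 3.887% of all windows did. As the 7 are copies of one sequence, they count as one observation. The E-box CACGTG and the SP motif GGGCGG were each found in the window of Rhox4g only, against 7.15% and 35.658% of all windows, and the E2F motif GCGGGAA in none of the 11, against 4.6%. These are matches of letters in a window, and no binding was measured. The window of Rhox5 lies before the most upstream start in RefSeq, and the values do not separate transcripts from different starts.

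At D0, transcripts of the 14 members were scarce, and after 6 days in 2i+vitC most members were higher. A member was called changed at more than 4-fold and an adjusted p under 0.05 in limma. From D0 to D6, 11 members rose (Rhox1, the 7 Rhox2 copies, Rhox4g, Rhox5 and Rhox7), 1 fell (Rhox6), and Rhox9 and Rhox13 did not pass the 4-fold minimum. Among all genes, 5.91% rose and 3.9% fell in this comparison. The median log2 fold change of the members was 5.35, or 4.88 with the members at 0 reads set to their lower bound, and that of all genes was -0.01. This median was set in large part by the row filter, as 9 members could have a row only by being higher later. Of the other 5, 2 rose (Rhox1 and Rhox5), 1 fell (Rhox6) and 2 did not pass, with a median of 1.53. These 5 were not free of the filter, as a row needed at least 1 later sample at its level. Rhox1 reached that level in D0 replicate 2 only, so that it needed at least 2 later samples. The 2 samples of D0 and the 2 of D6 did not overlap for any of the 14, nor for 69.4% of all genes. As the RNA came from whole cultures, more cells expressing a gene and more RNA per cell cannot be told apart.

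**Figure D1:**
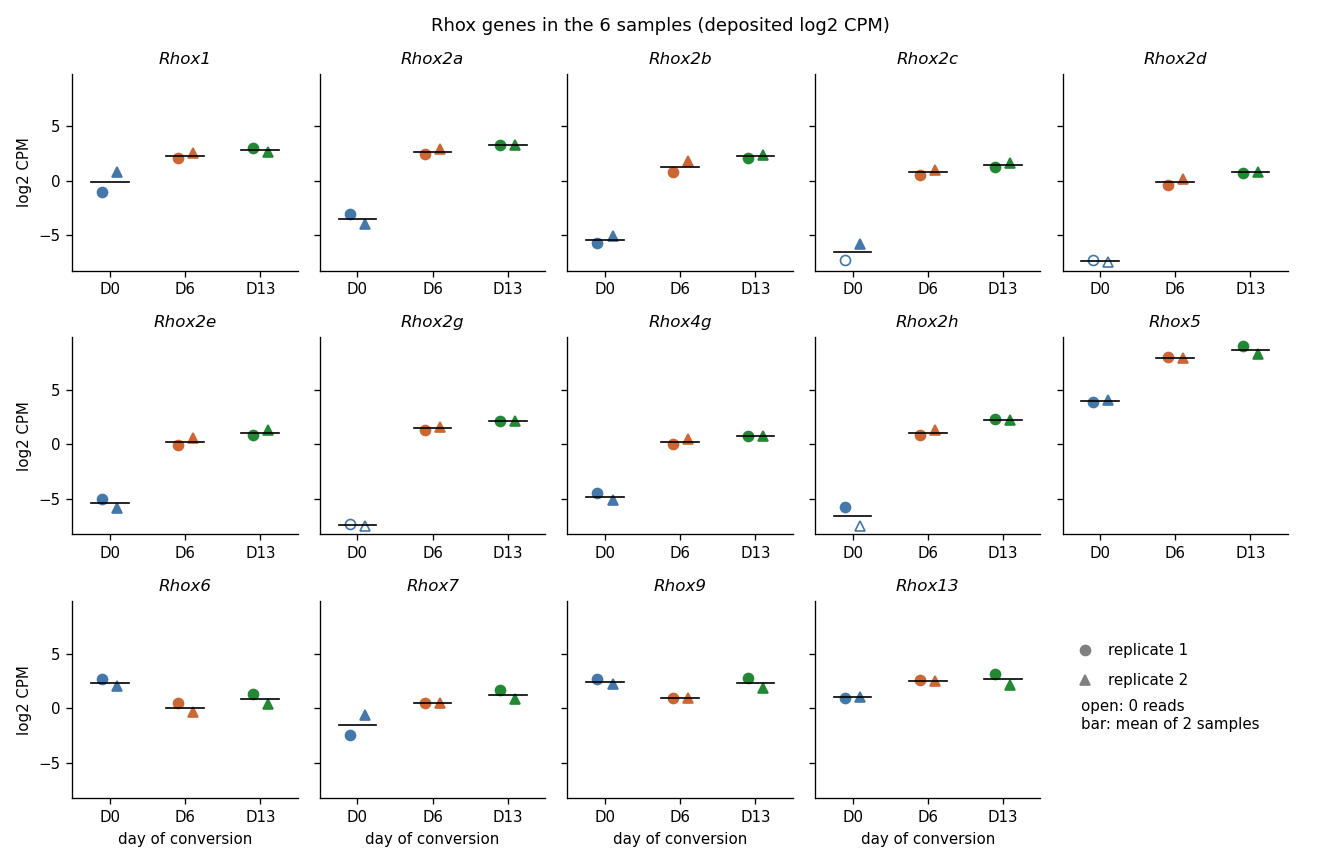
Deposited log2 CPM (y axis) of each of the 14 Rhox genes at D0, D6 and D13 (x axis), with a circle for replicate 1, a triangle for replicate 2, an open symbol for 0 reads and a bar for the mean of the 2 samples. Rhox5 lies highest on every day, the Rhox2 copies and Rhox4g are near 0 reads at D0, and Rhox6 and Rhox9 are lowest at D6.

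Together the 14 members took 29.8 and 31.7 reads per 1000000 gene reads in the D0 samples, 300.5 and 288.6 at D6, then 550.9 and 379.2 at D13. The days did not overlap, and the 2 samples of D13 lay far apart. On the normalised CPM scale, the summed level was 9.372-fold higher at D6 than at D0 and 1.666-fold higher at D13 than at D6. Rhox5 alone made up 48.9% and 56.5% of the Rhox reads at D0, then 89.5% and 86.5% at D6, and later 89.5% and 86.3% at D13. Rhox6 and Rhox9 together made up 41.9% and 28.5% at D0, but 1.13% and 0.959% at D6. Among the 14 members, the reads of serum cells were thus mainly from Rhox5, Rhox6 and Rhox9, and those of 2i+vitC cells mainly from Rhox5. The 19 protein-coding Rhox genes without a row are not covered by these shares.

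Rhox5 had 1158 and 1500 reads at D0, then 20200 and 20661 at D6, then 36765 and 23972 at D13. In log2 CPM these were 3.88 and 4.10, then 8.0 and 7.92, then 9.01 and 8.32. Each day lay above the one before without overlap, and D13 replicate 1 was 1.61 times as high in CPM as replicate 2. The log2 fold change from D0 to D6 was 3.97 (SE 0.26, limma adjusted p = 3.37e-05), a 15.7-fold rise, and from D0 to D13 it was 4.67 (adjusted p = 1.26e-05). From D6 to D13 it was 0.70, which did not pass (adjusted p = 0.145). The transcript of Rhox5 shares no run of 100 bases with any other annotated gene.

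Rhox5 also had the highest level per kilobase of transcript on every day. At D0 it was at 25.2 CPM per kb ± 2.78 (SD, n = 2), 4.037 times the next member, Rhox9, at 6.24 ± 1.32. At D6 it was at 394 ± 15.0, which was 49.09 times the level of Rhox2a, the next in order at 8.03 ± 1.87. At D13 it was at 659 ± 218, or 54.14 times the level of Rhox2a at 12.2 ± 0.541. Of the 100-base stretches of the Rhox2a transcript, 70.3% occur in another Rhox2 copy. The ratios at D6 and D13 therefore depend on how shared reads were counted.

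Below Rhox5 the order differed between the days. At D0, Rhox9 was followed by Rhox6 at 5.10 CPM per kb ± 1.60 and Rhox13 at 2.30 ± 0.145. Rhox9 and Rhox6 differed by less than their spread. Rhox1 came next at 1.25 ± 1.01, and the other members were below 1 CPM per kb. At D6, Rhox2a was followed by Rhox13 at 6.65 ± 0.132 and Rhox1 at 5.58 ± 1.32, with differences below their spread, and Rhox6 was last at 1.07 ± 0.416. At D13, Rhox1 at 8.20 ± 1.57, Rhox13 at 7.65 ± 3.71, Rhox2h at 6.15 ± 0.323 and Rhox9 at 6.03 ± 2.65 followed Rhox2a, and neighbours among these 4 differed by less than their spread.

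The 7 Rhox2 copies had between 0 and 9 reads each in the D0 samples. At D6 they had 61 to 420 reads in replicate 1 and 97 to 632 in replicate 2, and at D13 they had 116 to 669 and 132 to 748. Summed over the 7 rows, there were 13 and 9 reads at D0, then 1149 and 1773 at D6, then 2050 and 2365 at D13. The summed CPM was 132.1 times higher at D6 than at D0 and 1.7 times higher at D13 than at D6. The log2 fold changes from D0 to D6 were 5.66 to 8.84 (SE 0.45 to 0.67), and all 7 were called. As the row filter admits such genes only when they are higher in 2i+vitC, their direction was fixed beforehand, and the values are given as a description.

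Among them, Rhox2a was the most expressed, with 9 and 5 reads at D0, then 420 and 632 at D6, then 669 and 748 at D13. Its log2 fold change from D0 to D6 was 6.17 (SE 0.45). Rhox2g had 0 reads in both D0 samples, 201 and 254 at D6, then 310 and 341 at D13. Set against a floor of 3 reads per library, it was at least 76.4-fold higher at D6 and at least 122.6-fold higher at D13. Rhox2d, also at 0 reads in both D0 samples, had 61 and 97 reads at D6, then 116 and 132 at D13, and was at least 26.42-fold higher at D6. In all, 6 gene rows of the files were at 0 reads in both D0 samples, and 2 of these were Rhox genes.

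For the other Rhox2 copies, D0 rested on 1 to 3 reads in both samples together, and the fold is known only within a wide interval. Rhox2b had 1 and 2 reads at D0, then 133 and 290 at D6, then 299 and 391 at D13. Its ratio of D6 to D0 was 142.9, with an exact 95% interval of 48.55 to 695.5 that covers counting error only. Rhox2e had 2 and 1 reads at D0, then 75 and 124 at D6, then 131 and 184 at D13, a ratio at D6 of 67.2 (22.67 to 328.6). These intervals overlap, so that the depth does not show which copy rose more.

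Rhox2c and Rhox2h had a single read over the 2 D0 samples. Rhox2c had 113 and 168 reads at D6, then 170 and 223 at D13, with a ratio at D6 of 284.7 (50.68 to 11280). Rhox2h had 146 and 208 reads at D6, then 355 and 346 at D13, with a ratio at D6 of 358.6 (63.96 to 14210). In both, the D6 and D13 samples lay far above D0, and D13 lay above D6 without overlap. The log2 fold change of Rhox2h from D6 to D13 was 1.17, the highest among the Rhox2 copies, and did not pass the threshold (limma adjusted p = 0.32).

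The Rhox2 copies are similar enough that the split of reads between them is uncertain. Of all 100-base windows of the Rhox2e transcript, 89.0% occur in another gene too, and so do 70.3% for Rhox2a, 63.1% for Rhox2b and 57.0% for Rhox2c. The share was lower for Rhox2g (20.3%), Rhox2d (18.1%) and Rhox2h (12.4%). In each case the other genes were Rhox2 copies. These 3 rows, in which most windows occur in no other gene, were also among those called higher at D6. As all 7 were below the row filter at D0, this direction was fixed beforehand. How the authors' counting treated reads that fit several copies is not given in the sources used here. The sum over the 7 rows does not depend on how reads were split among them, but it would be too low if such reads were left out. Reads could also pass to or from Rhox2f, which has no row.

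**Figure D2:**
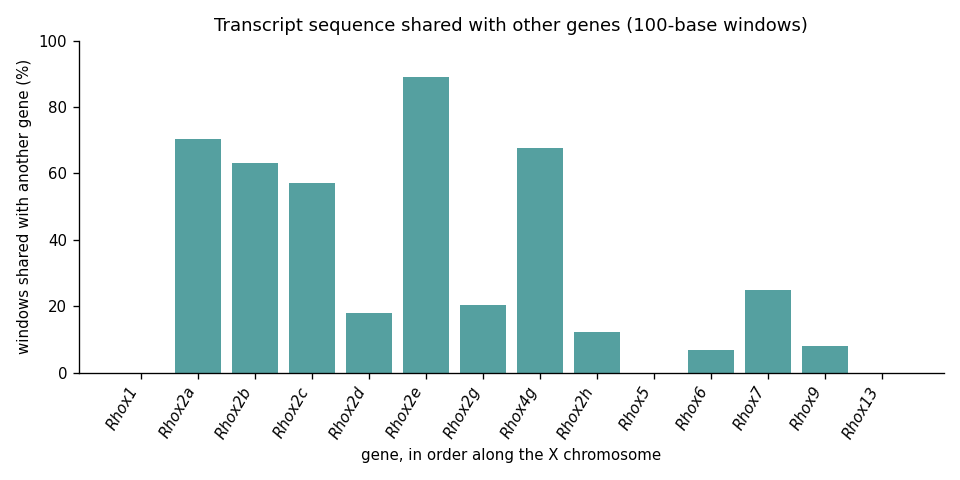
Share of 100-base windows of each Rhox gene's transcript (bars, y axis in percent) that also occur in a transcript of another gene, with genes in their order along the X chromosome (x axis). Rhox1, Rhox5 and Rhox13 share none, and Rhox2e shares the most with 89.0%.

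Rhox4g belongs to the Rhox4 copies, and 67.7% of its windows occur in another Rhox4 gene. It had 3 and 2 reads at D0, then 79 and 116 at D6, then 120 and 129 at D13. The ratio of D6 to D0 was 39.51, with a 95% counting interval of 16.65 to 123.1, and the log2 fold change was 5.04. None of the other Rhox4 genes had a row, so that the reads of Rhox4g may come from them in part.

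Rhox1, the first gene of the cluster, shares no 100-base window with another gene. It had 37 and 151 reads at D0, then 323 and 489 at D6, then 587 and 469 at D13. On the log2 scale the D0 samples differed from each other by more than those of the later days, and all later samples lay above both. The log2 fold change from D0 to D6 was 2.42 (SE 0.58, limma adjusted p = 0.0159), and from D0 to D13 it was 2.98 (adjusted p = 0.00377). The call at D6 was lost without D0 replicate 1, where the log2 fold change was 1.48, and without D6 replicate 2, where the adjusted p was 0.0586.

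Rhox7 was the weakest of the 11 calls, and it too was below the row filter in both D0 samples. It had 14 and 55 reads at D0, then 109 and 121 at D6, then 229 and 132 at D13. As for Rhox1, D0 replicate 1 was the lowest sample. Its log2 fold change from D0 to D6 was 2.04 (SE 0.64, limma adjusted p = 0.0482), and from D0 to D13 it was 2.80 (adjusted p = 0.00822). When 1 library was left out, the call at D6 held only without D0 replicate 2, and without D0 replicate 1 the log2 fold change was 1.15 (adjusted p = 0.167). It was also lost when samples were centred on the median gene (1.99) and in a fit of D0 and D6 alone (adjusted p = 0.0708). The call at D13 was lost without D0 replicate 1 (1.90) and without D13 replicate 1 (2.37, adjusted p = 0.0744). Of the windows of Rhox7, 24.8% also occur in Rhox7b or the pseudogene Rhox7-ps1.

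Rhox6 and Rhox9 went the other way. Rhox6 had 495 and 349 reads at D0, then 108 and 66 at D6, then 180 and 100 at D13. Its log2 fold change from D0 to D6 was -2.27 (SE 0.49, limma adjusted p = 0.0101), which is 4.84-fold lower, and the 2 days did not overlap. The call was lost without D0 replicate 1 (-1.95) and without D6 replicate 2 (-1.87). Against D0, the D13 value was -1.45 (adjusted p = 0.0421), which is past the p threshold and under 4-fold. From D6 to D13 the value was 0.83 (adjusted p = 0.335), and the samples of these days overlapped.

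Rhox9 had 498 and 408 reads at D0, then 148 and 163 at D6, then 498 and 275 at D13. Both D6 samples lay below all others, and those of D13 spanned the range of D0. The log2 fold change from D0 to D6 was -1.52 (SE 0.40, limma adjusted p = 0.0249), which is 2.86-fold lower and under the 4-fold minimum. From D6 to D13 it was 1.41 (adjusted p = 0.0784), and from D0 to D13 it was -0.11 (adjusted p = 0.847). Rhox6 and Rhox9 share 6.81% and 7.92% of their windows with each other and none with other genes. They were the only members with their lowest mean at D6, a pattern that 21.004% of all genes had. The other 12 members had means that were higher at each later day, as 27.99% of all genes had. Of these 12, 9 could have a row only by being higher later, so that this share is not a like baseline for them. No member had its highest mean at D6, as 21.091% of all genes had.

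Since Rhox6 and Rhox9 are known from placenta, trophoblast markers are given beside them. Of 8 trophoblast markers, 4 had a row, and Cdx2, Elf5, Hand1 and Tpbpa had none. Krt7, a keratin of trophoblast and other epithelia, was at 2.72 and 2.08 log2 CPM at D0, then 0.81 and 0.42 at D6, then 2.94 and 2.69 at D13. Ascl2, a factor of trophoblast progenitors, was at 1.48 and 0.79 at D0, then -0.67 and 0.55 at D6, then 2.29 and 1.89 at D13. Both had their lowest mean at D6, and Krt7 rose from D6 to D13 by 2.20 on the log2 scale. The other two did not follow this course. Tfap2c was at 4.95 and 6.04 at D0, then 6.49 and 6.54 at D6, then 6.17 and 6.10 at D13, and Eomes was at 2.44 and 1.89 at D0, then 1.57 and 2.41 at D6, then 1.74 and 1.71 at D13. The summed level of the 4 markers, in which Tfap2c weighs most, was 5.52 and 6.24 log2 CPM at D0. It was 6.58 and 6.66 at D6, then 6.46 and 6.36 at D13. The part of such cells in the levels of Rhox6 and Rhox9 was not tested.

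Rhox13, at the far end of the cluster, is known from germ cells and shares no window with another gene. It had 151 and 183 reads at D0, then 465 and 488 at D6, then 643 and 330 at D13. All samples in 2i+vitC lay above both of D0, and the D13 samples lay on either side of D6. The log2 fold change from D0 to D6 was 1.53 (SE 0.40, limma adjusted p = 0.0229), and from D0 to D13 it was 1.65 (adjusted p = 0.0106). Both were past the p threshold and under 4-fold, and without D13 replicate 2 the latter was 2.16 and passed both.

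From D6 to D13, no member passed the test in limma, with or without voom precision weights, while 0.388% of all genes rose and 0.697% fell. The mean was higher at D13 for all 14, which turned for Rhox13 (-0.40) without D13 replicate 1, and the samples of the 2 days did not overlap for 12 of them, each higher at D13, as for 30.0% of all genes. The median log2 fold change was 0.73, against -0.01 for all genes. At an unadjusted p under 0.05 there were 2 members, Rhox5 and Rhox9. The call also needs a 4-fold difference, which the highest value among the members, 1.41 for Rhox9, does not reach.

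From D0 to D13, 11 members rose and 0 fell past 4-fold, where 7.45% of all genes rose and 6.01% fell. The 11 were those that rose from D0 to D6, and both comparisons use the same D0 samples. The median log2 fold change was 6.04, or 5.56 with Rhox2d and Rhox2g at their lower bound, against -0.01 for all genes. It was 1.65 for the 5 members that reached the level of the row filter in a D0 sample. Rhox1, among these, did so in D0 replicate 2 only. Of the 14, 13 had an adjusted p under 0.05, with Rhox9 as the exception, against 42.7% of all genes. When 1 CPM was added before the logarithm, which shrinks the fold of genes near 0, the calls fell to 2 from D0 to D6 (Rhox2a and Rhox5) and to 6 from D0 to D13 (Rhox1, Rhox2a, Rhox2b, Rhox2g, Rhox2h and Rhox5).

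**Figure D3:**
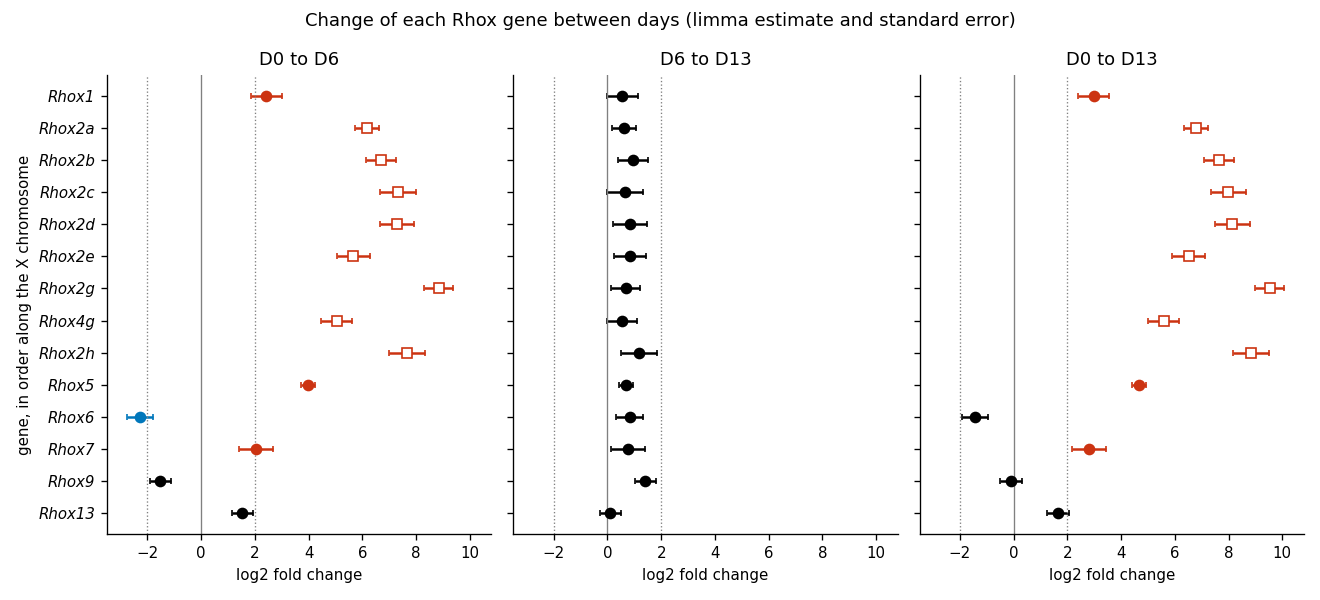
Log2 fold change (x axis, points) with its standard error (bars) of each Rhox gene in limma for the 3 comparisons of days, with a solid line at 0, dotted lines at a 4-fold change, red for called higher, blue for called lower and black for not called. Open squares mark the 8 genes with at most 9 reads in each D0 sample, whose point depends on the offset of 0.5 reads, and between D6 and D13 all points lie above 0 and below 4-fold.

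No flanking gene was called from D0 to D6. Of the 5 nearest genes matched by name to a row on each side, 0 rose and 0 fell from D0 to D6, with a median log2 fold change of -0.06. Among all genes 5.91% rose and 3.9% fell, so that 0 of 10 is near these shares. On the side of Rhox1, the nearest of these genes, Rnf113a1, lies 21.3 kb away and had a value of -0.48 (limma adjusted p = 0.332). On the side of Rhox13, the nearest, Zbtb33, lies 59.8 kb away and had a value of -1.20 (adjusted p = 0.0319), under 4-fold. From D0 to D13, 1 of the 10 rose, against 7.45% of all genes. This was Lamp2, a lysosomal membrane protein, which lies 269.7 kb away and had a log2 fold change of 2.23 (adjusted p = 0.0011). From D6 to D13, 0 of the 10 were called and the median was 0.38, while 0.388% of all genes rose and 0.697% fell.

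**Figure D4:**
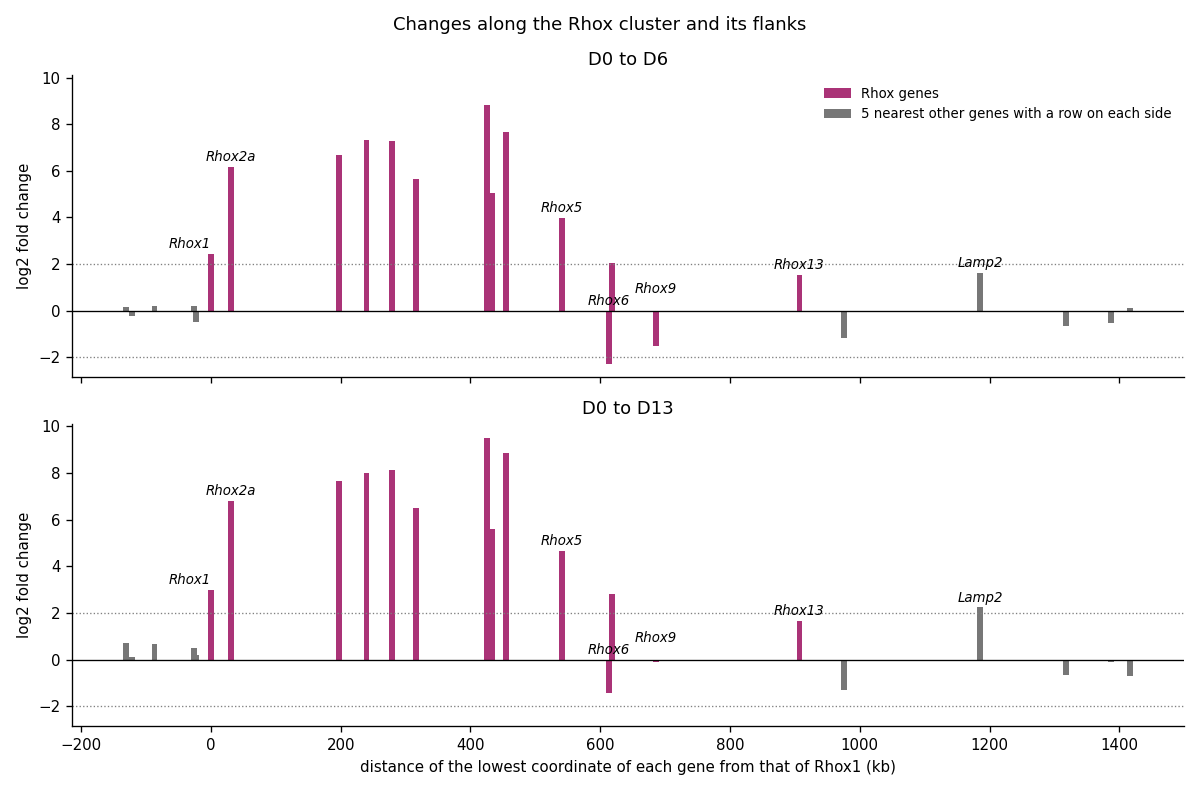
Log2 fold change (y axis) from D0 to D6 and from D0 to D13 of the 14 Rhox genes (purple bars) and the 5 nearest other genes matched by name to a row on each side (grey bars), by distance from Rhox1 in kb (x axis), with dotted lines at a 4-fold change. The Rhox2 copies in the first part of the cluster have the tallest bars, and Lamp2 is the only flanking gene past 4-fold, at D13.

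Factors known to act on the promoters of Rhox or other germline genes were taken as a list of 27, of which 25 could be looked up and 23 had a row. From D0 to D6, 0 rose and 3 fell, against 5.91% and 3.9% of all genes, with a list median of -0.39 on the log2 scale. The 3 were the de novo DNA methyltransferases Dnmt3a and Dnmt3b and their cofactor Dnmt3l. Dnmt3b was at 9.80 and 9.52 log2 CPM at D0, then 5.87 and 6.71 at D6, then 5.68 and 6.23 at D13. Dnmt3a was at 8.14 and 7.83 at D0, then 5.41 and 5.74 at D6, then 5.36 and 5.84 at D13. Dnmt3l was at 8.20 and 7.97 at D0, then 2.61 and 3.81 at D6, then 2.04 and 1.48 at D13.

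All 3 were thus lower in every sample of 2i+vitC than in serum. In the same 2i+vitC samples 12 Rhox members were higher than in serum, and Rhox6 and Rhox9 were lower at D6. Of the 12, 9 could have a row only by being higher later. Means that were higher at each later day, as these 12 had, were found in 27.99% of all genes. Among the Dnmt3 genes, the log2 fold changes from D0 to D6 were -3.37 for Dnmt3b, -2.41 for Dnmt3a and -4.87 for Dnmt3l. From D0 to D13 the same 3 were called lower, against 6.01% of all genes. From D6 to D13 none of the 23 was called, while 0.388% of all genes rose and 0.697% fell. The maintenance methyltransferase Dnmt1 had values of 0.18 at D6 and 0.41 at D13 against D0, neither past the threshold. Uhrf1, its cofactor, had a value of 1.11 at D6 (limma adjusted p = 0.00598) and 1.65 at D13, both under 4-fold. The RNA levels do not show the activity of these enzymes, and their part in the Rhox levels was not tested.

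The genes whose course over the 6 samples was most like that of Rhox5 were sought among 11588 rows outside the cluster, by the Euclidean distance between row-centred log2 CPM. The nearest was Ltk, a receptor tyrosine kinase, at a distance of 0.255. Next came the crystallin gene Cryge (0.387), the folate enzyme Aldh1l1 (0.470), the homeobox gene Hesx1 (0.484) and Cox7b2, a subunit of cytochrome c oxidase (0.514). Ltk was at -0.56 and -0.05 log2 CPM at D0, then 3.53 and 3.52 at D6, then 4.61 and 3.96 at D13. As for Rhox5, its D13 replicate 1 was the highest of the 6 samples, which the choice by distance over these samples favours. Ltk and Cryge were below the row filter in both D0 samples, Ltk only narrowly in replicate 2, so their direction was fixed beforehand.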

How the data were processed

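Paired-end RNA-seq of 6 samples, 2 biological replicates per day, was analysed. The authors mapped reads to mm10 with TopHat2 2.0.6 and the RefSeq annotation and counted genes with HTSeq 0.6.1, combined these with transposon family counts mapped with Bowtie 1.0.0, applied TMM and deposited log2 CPM from voom. Counts were not used as such, but 100% of the gene values lay within 0.001 of a whole read plus the offset of 0.5. The 12626 gene and 302 family rows were fitted in limma 3.58.1 (R 4.3.3), with a mean per day over all 6 samples, a mean-variance trend and two-sided moderated tests, adjusted by Benjamini-Hochberg over 12928 rows. With simulated data for D0 to D6 on 12928 rows, 99.5% of 200 rows changed by a log2 value of 3 were called and 0 unchanged ones. Every Rhox gene was named singly, as each had at least 10 reads in a sample, and lists were limited to their genes of highest level, those called and the nearest neighbour on each side. The members and lists were chosen with earlier results of these data known. Rhox7 matched RefSeq Rhox7a by synonym and the other 13 by symbol. The file names of genes lack the capital G, so that listed genes spelled with one, such as Gabpa, could not be looked up. Nor could such genes, or names held by several rows, be found within or beside the cluster. Alternatives were a low-read filter, fits of 2 days, the replicate block, each library left out, other thresholds, weights, centring and log2(CPM + 1). An SD over 2 samples is imprecise, and intervals of read ratios cover counting error only. Python 3.11.15 with pandas 2.3.3 and scipy 1.17.1 was used.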

Additional observations from a re-analysis of the deposited data

How the results depend on the processing

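The 11 members higher at D6 than D0 became 2 on log2(CPM + 1), and ranged from 9 to 11 when 1 library was left out. The 1 member lower at D6 became 0 on log2(CPM + 1) and at an adjusted p under 0.01, and 2 at a 2-fold minimum, with 0 to 1 when 1 library was left out. The 11 higher at D13 than D0 became 6 on log2(CPM + 1) and ranged from 10 to 12 without 1 library. The count lower at D13 than D0 was 0 and became 1 at a 2-fold minimum. No library left out gave a call from D6 to D13 (0 to 0). Adding 1 CPM shrinks the fold of low genes by construction; for the other changes the cause was not tested. The direction turned for Rhox13 from D6 to D13 without D13 replicate 1 (-0.40 in a range up to 0.63), and for Rhox9 from D0 to D13 without D0 replicate 1 (0.11) and without D13 replicate 2 (0.36, in a range from -0.57), none of which was called. Over 546 member values under alternatives, 514 kept direction and side of the threshold, 28 lost the call, 1 gained it and 3 turned.

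Same-numbered replicates did not deviate together throughout (r over 12626 genes of -0.13 for D0 and D6, 0.137 for D0 and D13, and 0.329 for D6 and D13), so that the numbers were not taken to pair samples. With the replicate block, 11 members were higher and 1 lower at D6, 11 higher and 0 lower at D13, and 0 were called from D6 to D13. Depth limits the folds of the 8 members with at most 9 reads in each D0 sample.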

Other observations

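Other germline genes whose promoters are known to carry DNA methylation changed in both directions. Of a list of 24, 23 had a row. From D0 to D6, 9 rose and 2 fell, against 5.91% and 3.9% of all genes. The median log2 fold change was 0.48, against -0.01 for all genes. Of those that rose, Asz1, Dpep3 and Tuba3b were below the row filter in both D0 samples, so their direction was fixed beforehand. Dazl, an RNA-binding protein of germ cells, was at 2.83 and 2.64 log2 CPM at D0, then 8.48 and 8.53 at D6, then 9.34 and 9.47 at D13. Its log2 fold change from D0 to D6 was 5.77. Hormad1, of the meiotic chromosome axis, had 3.87, and Sohlh2, a factor of early germ cells, had 3.06. Ddx25 (-2.24) and Dmrtb1 (-2.14) fell. Ddx4, a germ cell helicase singled out after its values were seen, had a value of -1.74 and did not pass 4-fold. From D0 to D13, 10 rose and 1 fell, against 7.45% and 6.01% of all genes. From D6 to D13 1 rose, Taf7l, with a value of 2.01, against 0.388% of all genes.

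Of 28 other homeobox genes of related or X-linked kinds, 27 could be looked up and 7 had a row. Obox6, of an oocyte homeobox family, rose from D0 to D6 by 6.67 on the log2 scale, and Hesx1, a factor of the early forebrain and pituitary, had 4.07, while Otx2 fell (-2.26). Hesx1 and Obox6 were also higher at D13 than at D0, by 4.37 and 5.72 on the log2 scale, and both passed the test. Obox6, at -2.66 and -1.89 log2 CPM at D0, was below the row filter in both D0 samples, so its direction was fixed beforehand. Esx1, an X-linked homeobox gene of placenta and testis that was also singled out afterwards, was not called, with values of -0.24 for D6 against D0 and 1.86 for D13 against D6.

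Among marker lists of other cell types, all 6 germ cell markers had a row, and Dazl (5.77), Kit (4.18) and Nanos3 (2.07) rose from D0 to D6. The other three were under 4-fold, with values of -1.74 for Ddx4, -1.43 for Dnd1 and -1.17 for Prdm1. The summed level of the 6, in which Kit and Dazl weigh most, was 6.71 and 7.02 log2 CPM at D0 and 9.83 and 9.78 at D6. For Sertoli cells, 1 of 5 markers had a row, Inhbb, and Amh, Sox9, Wt1 and Dhh had none. For endoderm, 7 of 9 could be looked up and 3 had a row, and Dab2 fell (-4.32). For fibroblasts 4 of 6 had a row and 0 were called from D0 to D6, and their summed level was 5.05 in D0 replicate 1 and 3.75 in D0 replicate 2. Of the 8 ES cell markers, Nanog rose (2.00) and Utf1 fell (-2.10) from D0 to D6. The part of any of these cell types in the Rhox levels was not tested.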
